A study of Mus musculus with 6 samples.

Results

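The circadian clock of the mouse colon was followed through 10 genes: Arntl (the older symbol of Bmal1) and Clock, the period genes Per1, Per2 and Per3, the cryptochrome genes Cry1 and Cry2, the nuclear receptor genes Nr1d1 and Nr1d2, and the output gene Dbp. They were taken by symbol from a deposited table of 54532 genes. All 10 had enough reads to be tested, among 16861 tested genes in all. Poly-A RNA came from the distal colon of mice that drank DSS (dextran sulfate sodium of 36 to 50 kDa, at 3% weight per volume) for 7 days, which injures the epithelium and causes colitis. There were 3 libraries of genotype WT (WT 1 to WT 3) and 3 of genotype Itgbl1 -/- (KO 1 to KO 3), and both groups received DSS, with no untreated group and one batch date for all. Strain, sex and age, the way the allele was made and the hour of collection are not stated in the labels. Libraries are separated in the labels by a replicate number only, and the p-values therefore reflect only how far these samples spread, which may be technical.

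In the clock, the proteins of Arntl and Clock bind as a pair to E-box sequences and switch on the period and cryptochrome genes, whose proteins then inhibit that pair. Nr1d1 and Nr1d2 encode REV-ERB receptors, which repress Arntl through ROR elements, where the activating ROR receptors also bind. Dbp is a direct target of the E-box pair, and its protein activates genes through D-box sequences, where the repressor encoded by Nfil3 competes. The loop runs in most cell types of the gut, epithelium included, and Arntl transcripts usually peak when those of Nr1d1 and Dbp are low.

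Total counts per library lay between 13326970 (KO 3) and 18321389 (WT 1). Itgbl1 had 5 to 19 reads in the wild-type libraries and 4 to 12 in those labelled knockout. The counts show no loss of the targeted transcript, but with so few reads over the whole gene they could hardly show one. Each direction below is therefore between labels. Epithelial RNA was scarce in KO 1 and KO 3 and reduced less in KO 2: the summed level of 15 colonic epithelial markers was 21895.5, 31368.9 and 23073.5 CPM (counts scaled to a common library size by TMM) in WT 1 to WT 3 and 1445, 12339.7 and 111.4 CPM in KO 1 to KO 3. All 15 had a negative log2 ratio, and none was at 0 reads in any library. The markers did not all separate the labels, since in KO 2 the mucin gene Muc2 (2197 CPM) lay inside the wild-type range and Tff3 (1707 CPM) lay above it. In KO 3, which also had 12.8% mitochondrial counts against 3.53 to 4.88% in the other libraries, Epcam stood at 8.70 CPM, against 2293 to 2403 CPM under the wild-type label. Fewer cells of a type and less RNA per cell cannot be told apart in such bulk samples. Markers of enteric neurons and glia summed to 110.4 to 208.9 CPM under the wild-type label and 295.9 to 986 CPM under the knockout label, and endothelial markers to 143.0 to 279.0 and 242.9 to 1037 CPM, which overlap. Fibroblast markers summed to 1450 to 2537 CPM and 3838 to 6836 CPM, and of these 8 markers 4 were higher without overlap. In KO 3 Dcn alone, at 3515 CPM, held most of the sum of 5076 CPM. Col1a1 in KO 3, at 92.5 CPM, lay below its wild-type range of 148.5 to 306.8 CPM. Neutrophil markers summed to 533.1, 14.7 and 216.0 CPM in WT 1 to WT 3, lowest in WT 2, and to 1235, 1261 and 6402 CPM in KO 1 to KO 3. Of these 9 markers, 7 were higher without overlap, beside 15.0% of all tested genes. Macrophage, lymphocyte and smooth muscle sums overlapped between the labels. The part of these cell types in the values below was not tested.

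Under the knockout label the clock genes differed in opposite directions. Dbp, Per3, Nr1d1 and Per2 were lower in all 3 libraries than in every wild-type library, and Per1 was higher in all 3. Dbp differed most, by 7.01-fold, and Per3 and Nr1d1 by 3.11-fold and 2.17-fold. Arntl, Clock, Cry1, Cry2 and Nr1d2 overlapped between the labels. By edgeR's quasi-likelihood test, the 4 lower genes and Per1 had an unadjusted p under 0.05, and no gene passed after Benjamini-Hochberg adjustment over all tested genes.

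**Figure D1:**
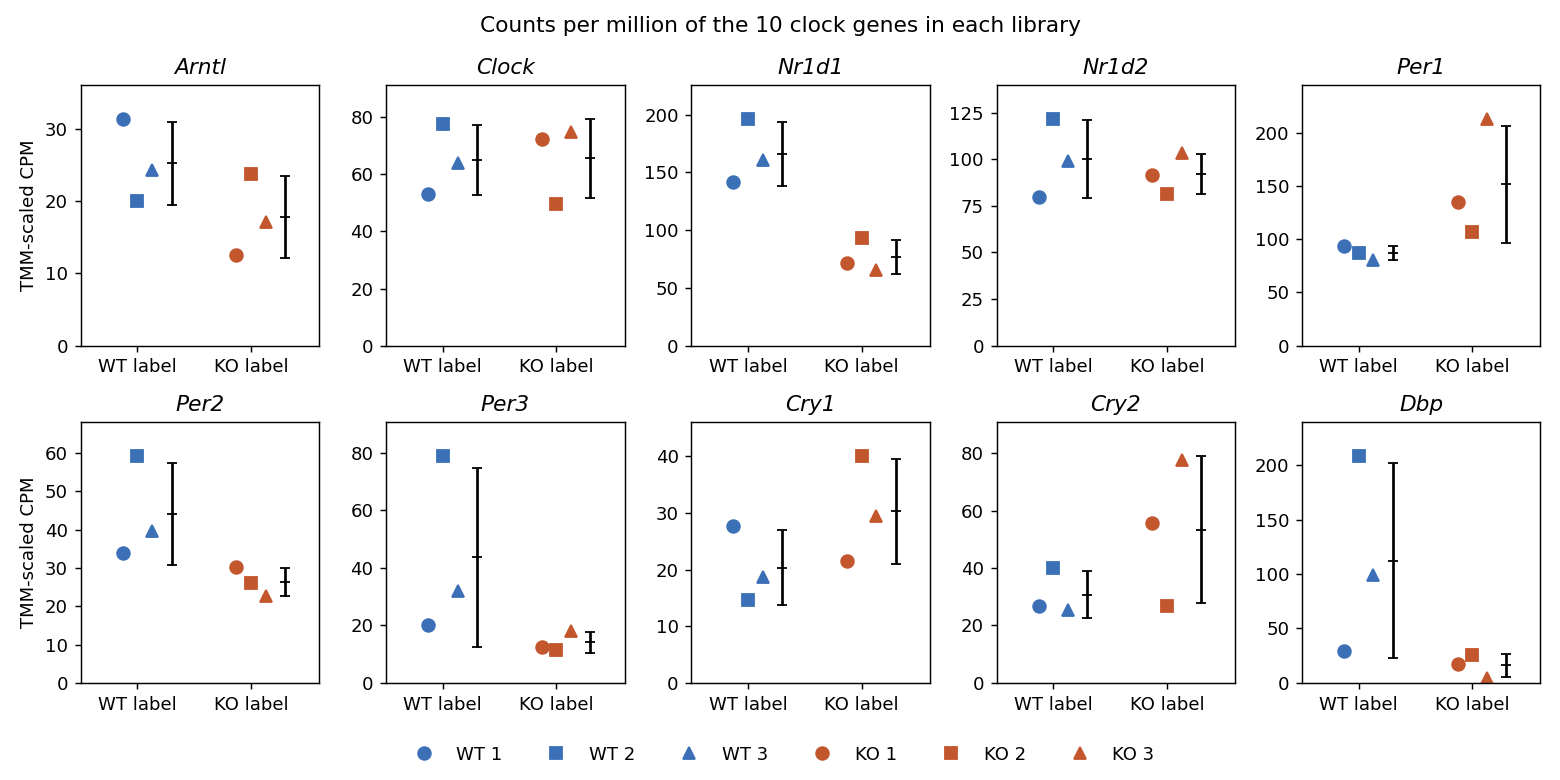
TMM-scaled CPM (vertical axes, each from 0) of the 10 clock genes in the 3 wild-type and the 3 knockout-labelled libraries, with the mean and SD in black. Nr1d1, Per2, Per3 and Dbp lie lower in every knockout-labelled library than in any wild-type library, Per1 lies higher, and the other 5 genes overlap.

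Those counts are read against the whole table. The share of tested genes with an unadjusted p under 0.05 was 12.3% for genes lower under the knockout label and 11.8% for higher ones, beside 4 and 1 of the 10 clock genes. Libraries did not overlap in 17.3% of tested genes on the lower side and 15.0% on the higher side, beside the same 4 and 1 clock genes. The adjusted test called 0% of the table (0 of 16861 genes by edgeR, with 4059 at an unadjusted p under 0.05). DESeq2 called 2029 genes, voom weighting in limma called 0, and the same with library quality weights called 1395. By DESeq2 the called share was 6.45% on the lower and 4.02% on the higher side, and 3 clock genes were called, all lower (Dbp, Nr1d1 and Per3). The split of unadjusted calls was 1992 higher and 2067 lower, and 2673 higher and 1691 lower with upper-quartile scaling, which raised the median log2 ratio of all genes from 0.061 to 0.206. The median log2 ratio of the 10 clock genes was -0.31, with 6 negative. The number of clock genes with an unadjusted p under 0.05 dropped from 5 to 3 without WT 2, without WT 3 or without KO 3, each time through the loss of Per1 and Per2.

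Neither activator gene differed detectably between the labels. Arntl (ENSMUSG00000055116, chromosome 7, 113207465 to 113314126, GRCm38) measured 31.4, 20.1 and 24.3 CPM across WT 1 to WT 3, against 12.6, 23.9 and 17.1 CPM across KO 1 to KO 3. KO 2 thus lay between the wild-type libraries, while KO 1 and KO 3 lay below all of them. The log2 ratio, -0.50, had a 95% interval from -1.27 to 0.27 (edgeR adjusted p = 0.381). Clock (ENSMUSG00000029238, chromosome 5, 76209868 to 76304792) measured 53.1, 77.8 and 64.2 CPM, against 72.3, 49.7 and 74.9 CPM in the same orders. The highest Clock level was in WT 2 and the lowest in KO 2, so the labels interleaved. Its log2 ratio of 0.01 had an interval from -0.62 to 0.64 (edgeR adjusted p = 0.981).

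A promoter window of Arntl is shown because the product of Nr1d1, lower here, represses Arntl through ROR elements. RefSeq promoters (GRCm38.p6, 250 bases before to 50 after each start) were found for 9 of the 10 genes, in 13 windows. They were searched on both strands for the E-box CACGTG, the D-boxes TTATGTAA and TTACGTAA, the ROR elements TAGGTCA and TGGGTCA, and the cyclic AMP element TGACGTCA. The second Arntl window (chr7:113207261-113207560, plus strand), with its ROR element in capitals from 30 bases after the start, reads as follows.
Arntl: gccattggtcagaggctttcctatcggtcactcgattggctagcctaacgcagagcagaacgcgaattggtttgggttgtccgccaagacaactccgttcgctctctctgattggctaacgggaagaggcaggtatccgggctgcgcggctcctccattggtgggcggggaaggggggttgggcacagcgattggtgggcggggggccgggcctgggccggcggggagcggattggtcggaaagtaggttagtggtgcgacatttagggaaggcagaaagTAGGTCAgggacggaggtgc
ROR elements of these letters were in 6.45% of all 32851 windows of this length. A match is a string of letters and not a shown binding site.

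The REV-ERB genes parted, with Nr1d1 lower and Nr1d2 level. Nr1d1 (ENSMUSG00000020889, chromosome 11, 98767932 to 98775333) measured 141.6, 196.4 and 160.8 CPM across WT 1 to WT 3, against 71.2, 92.9 and 65.3 CPM across KO 1 to KO 3. The groups did not overlap, and the highest knockout-labelled library (KO 2) was well under the lowest wild-type one (WT 1). The log2 ratio was -1.12 ± 0.27 (SE, 95% interval -1.76 to -0.48), at an edgeR adjusted p of 0.101. The call is made by DESeq2 (adjusted p = 0.0153), by limma-voom with quality weights (0.0322) and by edgeR without KO 2 (0.0393), and over all 17 alternatives the adjusted p ran from 0.0153 to 0.38. Nr1d2 (ENSMUSG00000021775, chromosome 14, 18204054 to 18239127) measured 79.9, 121.8 and 99.1 CPM, against 91.4, 81.6 and 103.4 CPM. All 3 knockout-labelled values lay inside the wild-type range, and the log2 ratio was -0.12 (interval -0.73 to 0.48, edgeR adjusted p = 0.795). Within a library, the log2 ratio of Nr1d1 to Nr1d2 reads was 0.83, 0.69 and 0.70 in WT 1 to WT 3 and -0.36, 0.19 and -0.66 in KO 1 to KO 3, a pair chosen after its values were seen. This ratio does not depend on scaling between libraries, and it was lower in each knockout-labelled library than in any wild-type one. Exons of Nr1d1 overlap those of Thra on the other strand by 263 bases (8.55% of the Nr1d1 exons). With no strand setting given, reads of that stretch cannot be told apart. Thra had 1005 to 1048 reads under the wild-type label and 1135 to 1807 under the knockout label.

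The 3 period genes, whose products form the inhibitory complex, did not share a direction. Per1 (ENSMUSG00000020893, chromosome 11, 69095217 to 69109960) measured 94.0, 86.6 and 80.7 CPM across WT 1 to WT 3, against 135.3, 106.8 and 213.1 CPM across KO 1 to KO 3. Wild-type levels were within 1.17-fold of each other, all knockout-labelled levels were above them, and KO 3 was the highest. The log2 ratio was 0.80 ± 0.32 (SE, interval 0.06 to 1.54), at an edgeR adjusted p of 0.184. Without KO 3 it was 0.45 (edgeR adjusted p = 0.359). Per2 (ENSMUSG00000055866, chromosome 1, 91415982 to 91459324) measured 33.8, 59.1 and 39.5 CPM, against 30.1, 26.1 and 22.8 CPM. The Per2 groups did not overlap but nearly met, WT 1 being close to KO 1. The log2 ratio was -0.74 ± 0.29 (SE, interval -1.42 to -0.07, edgeR adjusted p = 0.177), and with upper-quartile scaling it was -0.60 and the groups overlapped. Per3 (ENSMUSG00000028957, chromosome 4, 151003652 to 151044665) measured 20.03, 78.8 and 32.1 CPM, against 12.5, 11.6 and 18.2 CPM. WT 2 was 3.94-fold above WT 1, while KO 3 was nearly at the level of WT 1. The log2 ratio was -1.64 ± 0.52 (SE, interval -2.86 to -0.41), with an edgeR adjusted p of 0.134 and a DESeq2 adjusted p of 0.039. Without WT 2 it shrank to -0.92 (edgeR adjusted p = 0.37). Per1 to Per2 read ratios, also chosen after the values were seen, were 1.48, 0.55 and 1.03 on the log2 scale in WT 1 to WT 3 and 2.17, 2.03 and 3.23 in KO 1 to KO 3. That they did not overlap follows from Per1 being higher and Per2 lower in every knockout-labelled library, and adds nothing to it.

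Promoter windows of Per1 and Per3 are shown because these family members differed in opposite directions and hold different clock motifs. Whether the motifs bear on the directions was not tested. Per1 (chr11:69098699-69098998, plus strand) has an E-box starting 166 bases before the start, in capitals. Per3 (chr4:151044616-151044915, minus strand) has 2 D-boxes starting 205 and 158 bases before it, in capitals.
Per1: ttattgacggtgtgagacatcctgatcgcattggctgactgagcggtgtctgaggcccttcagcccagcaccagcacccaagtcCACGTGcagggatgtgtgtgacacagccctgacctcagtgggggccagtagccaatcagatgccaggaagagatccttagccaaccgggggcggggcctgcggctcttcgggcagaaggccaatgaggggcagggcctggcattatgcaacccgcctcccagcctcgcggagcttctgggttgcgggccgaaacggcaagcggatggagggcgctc
Per3: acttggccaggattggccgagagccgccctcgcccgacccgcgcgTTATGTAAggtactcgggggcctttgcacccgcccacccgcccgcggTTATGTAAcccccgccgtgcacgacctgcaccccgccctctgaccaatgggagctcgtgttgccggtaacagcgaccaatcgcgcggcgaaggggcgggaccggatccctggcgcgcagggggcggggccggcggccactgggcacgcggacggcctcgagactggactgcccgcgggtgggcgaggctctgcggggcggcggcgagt
The E-box letters were in 7.15% of all windows and the D-box letters in 1.06%. A second Per1 window held none of the searched motifs. The Cry1 window held 1 E-box, 60 bases before its start, and windows of the 5 genes Clock, Cry2, Nr1d1, Nr1d2 and Dbp held none of these letters.

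Both cryptochrome genes, which encode the partners of the period proteins, had higher means under the knockout label, with overlap. Cry1 (ENSMUSG00000020038, chromosome 10, 85131700 to 85185064) measured 27.6, 14.7 and 18.7 CPM across WT 1 to WT 3, against 21.5, 40.0 and 29.4 CPM across KO 1 to KO 3. KO 1 lay below WT 1, and the log2 ratio was 0.57 (interval -0.25 to 1.39, edgeR adjusted p = 0.35). Cry2 (ENSMUSG00000068742, chromosome 2, 92403646 to 92434043) measured 26.6, 40.1 and 25.5 CPM, against 55.7, 26.9 and 77.8 CPM. KO 1 and KO 3 were above every wild-type library and KO 2 was level with WT 1. Its log2 ratio was 0.80 (interval -0.17 to 1.77, edgeR adjusted p = 0.283). Cry1 was highest among the knockout-labelled libraries in KO 2, where Cry2 was lowest. Cry2 to Cry1 read ratios overlapped between the labels. On the log2 scale they were -0.05, 1.45 and 0.45 in WT 1 to WT 3 and 1.37, -0.57 and 1.405 in KO 1 to KO 3.

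Dbp, the output gene, had the lowest relative level of the 10 under the knockout label and also the widest spread within each label. Dbp (ENSMUSG00000059824, chromosome 7, 45705088 to 45710203) measured 29.7, 208.2 and 99.4 CPM across WT 1 to WT 3, against 17.6, 25.5 and 4.90 CPM across KO 1 to KO 3. WT 2 was 7.02-fold above WT 1, as large a range as the 7.01-fold difference between the labels, and KO 2 lay just under WT 1. The log2 ratio was -2.81 ± 0.84 (SE, interval -4.79 to -0.83), with an edgeR adjusted p of 0.128 and a DESeq2 adjusted p of 0.00393. Without WT 2 it was -2.03 (edgeR adjusted p = 0.365), and without WT 2 and KO 3 together it was -1.60 (0.405). Dbp and Nr1d1 had the same order over the 6 libraries as the summed epithelial markers: WT 2, WT 3, WT 1, KO 2, KO 1 and KO 3 from high to low. None of the other 8 genes shared that order, and the part of epithelial RNA in it was not tested. Single epithelial markers did not all share it: Krt8 and Krt19 did, while Epcam and Muc2 did not. Exons of Dbp and of Sphk2, on the other strand, overlap by 539 of 2993 Dbp exon bases, and Sphk2 had 988 to 1349 reads under the wild-type label and 260 to 910 under the knockout label.

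**Figure D2:**
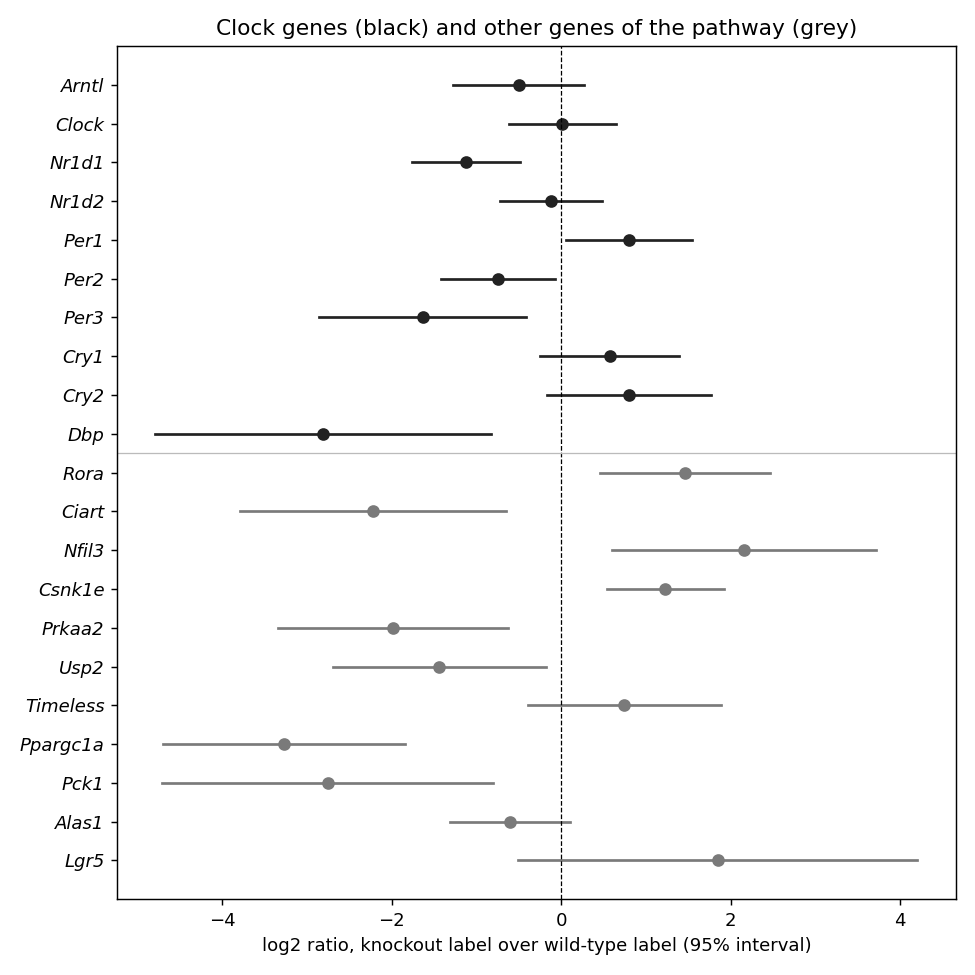
Log2 ratios of the knockout label over the wild-type label (horizontal axis) with 95% intervals from edgeR, for the 10 clock genes in black and 11 genes named from 3 other clock lists in grey. Intervals of Nr1d1, Per1, Per2, Per3 and Dbp leave out 0 before any adjustment, from -2.81 for Dbp to 0.80 for Per1.

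The wild-type libraries differed among themselves. WT 2 held the highest wild-type level of 7 genes (Clock, Per2, Per3, Cry2, Nr1d1, Nr1d2 and Dbp) and the lowest of Arntl and Cry1. WT 1 held the highest level of Arntl, Per1 and Cry1 and the lowest of 6 others. WT 3 lay between them for all but Per1 and Cry2, where it was lowest. Within a library, the log2 ratio of Dbp to Arntl reads was -0.08, 3.38 and 2.03 in WT 1 to WT 3. It was 0.49, 0.10 and -1.80 in KO 1 to KO 3, so KO 1 and KO 2 lay beside WT 1. The ratio of Nr1d1 to Arntl was 2.17, 3.29 and 2.73 in WT 1 to WT 3 and 2.503, 1.96 and 1.93 in KO 1 to KO 3. Per3 to Arntl was at -0.65, 1.97 and 0.40 and at -0.01, -1.05 and 0.09, and Per2 to Arntl at 0.10, 1.56 and 0.70 and at 1.26, 0.13 and 0.41. These 4 ratios overlapped between the labels, and in each the highest library was WT 2. Per1 to Arntl did not overlap, at 1.58, 2.11 and 1.73 in WT 1 to WT 3 and 3.43, 2.16 and 3.64 in KO 1 to KO 3, although KO 2 was close to WT 2. Nr1d2 to Arntl overlapped and was highest in KO 1, at 2.86, with WT 2 next at 2.602.

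**Figure D3:**
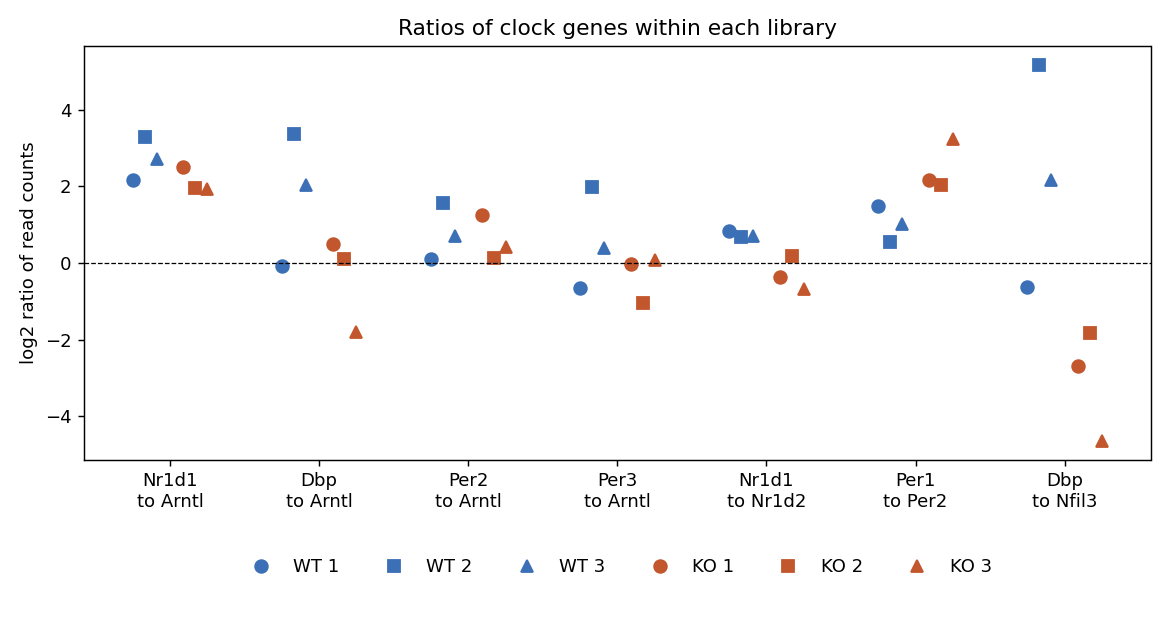
Log2 ratios of read counts between pairs of clock genes (vertical axis) within each of the 6 libraries. The 4 plotted ratios to Arntl (Nr1d1, Dbp, Per2 and Per3) overlap between the labels and are highest in WT 2. Nr1d1 to Nr1d2, Per1 to Per2 and Dbp to Nfil3, chosen after their values were seen, do not overlap. For Per1 to Per2 and Dbp to Nfil3 this follows from the opposite, non-overlapping directions of the paired genes.

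Per length, the receptor and output genes led the wild-type libraries. Levels per exonic length (FPKM, here CPM divided by the exonic length in kilobases) averaged 54.0 ± 9.04 for Nr1d1, 37.6 ± 30.1 for Dbp, 18.5 ± 3.87 for Nr1d2 and 15.5 ± 1.19 for Per1 (SD, n = 3 each). Neighbours in this order overlapped, and Per1 was separated from the next gene, Per2, at 7.53 ± 2.27 FPKM. Cry1, Cry2, Clock, Per3 and Arntl followed from 6.09 down to 3.36 FPKM, each overlapping the next. Under the knockout label Per1 led with 27.0 ± 9.77 FPKM, level with Nr1d1 at 24.8 ± 4.74 FPKM (SD, n = 3 each). Nr1d2 came next at 17.03 FPKM. The mean of Dbp, 5.35 FPKM, was behind those of both Cry genes, but its range overlapped theirs. In KO 2 Dbp, at 8.52 FPKM, was above Cry2, at 4.25 FPKM. Arntl and Per3 were last at 2.37 and 1.46 FPKM, overlapping each other.

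Of 11 further clock transcription factors and regulators, 10 were tested, 2 were higher and 3 lower at an unadjusted p under 0.05, and none passed after adjustment. Over all tested genes, 11.8% were higher and 12.3% lower at that threshold. The median log2 ratio of these factors was -0.08, beside 0.061 over all tested genes. Nfil3, the repressor that competes with Dbp at D-boxes, measured 45.3, 5.76 and 21.9 CPM across WT 1 to WT 3, against 113.4, 89.9 and 122.2 CPM across KO 1 to KO 3 (log2 ratio 2.16, edgeR adjusted p = 0.131). Nfil3 was lowest in WT 2 and high in every knockout-labelled library, and the log2 ratio of Dbp to Nfil3 reads ran from -0.61 to 5.18 under the wild-type label and from -4.64 to -1.82 under the knockout label. This pair too was chosen after its values were seen. Its separation follows from Dbp being lower and Nfil3 higher in every knockout-labelled library. Tef, a D-box activator named after its values were seen, measured 84.7, 226.2 and 148.0 CPM, against 83.9, 83.0 and 55.6 CPM (log2 ratio -1.04, edgeR adjusted p = 0.175). Ciart, an E-box target whose product inhibits the clock, measured 5.65, 26.9 and 8.26 CPM, against 1.78, 3.49 and 3.50 CPM (log2 ratio -2.22, edgeR adjusted p = 0.127). Dbp, Per3, Tef and Ciart thus shared their highest value in WT 2.

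Rora, whose product activates through ROR elements where the REV-ERBs repress, measured 17.5, 9.998 and 20.5 CPM across WT 1 to WT 3, against 53.1, 23.4 and 56.0 CPM across KO 1 to KO 3 (log2 ratio 1.46, edgeR adjusted p = 0.121). The labels did not overlap for Rora, and KO 2 was nearest to the wild-type libraries.

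**Figure D4:**
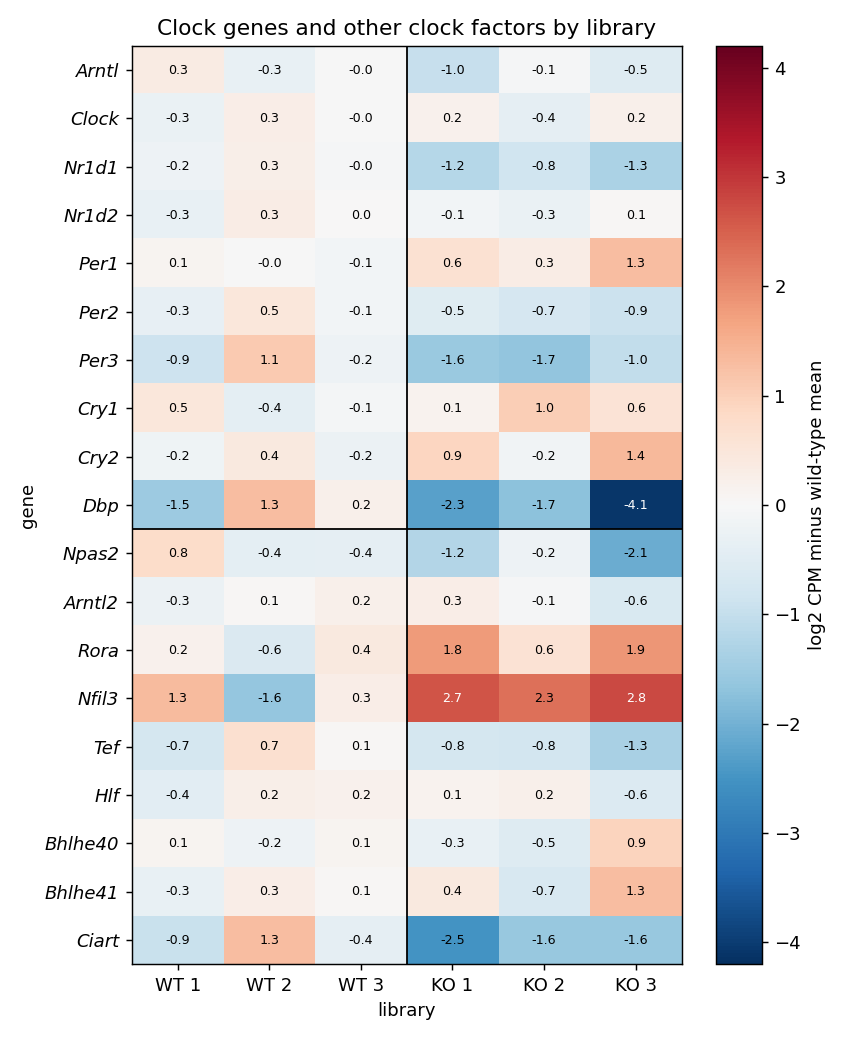
Log2 CPM of each gene (rows) in each library (columns) relative to its wild-type mean, for the 10 clock genes above the line and 9 other clock factors below it. WT 2 is high for Per3, Dbp and Ciart and low for Nfil3, while the 3 knockout-labelled libraries are low for Dbp, Nr1d1 and Ciart and high for Nfil3.

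Of 12 genes for kinases, ubiquitin ligases and other modifiers of clock proteins, 1 was higher and 2 were lower at an unadjusted p under 0.05, with a median log2 ratio of -0.16. These counts are near the shares over all tested genes, 11.8% higher and 12.3% lower. Csnk1e, a casein kinase gene whose product phosphorylates period proteins, measured 32.8, 26.6 and 28.2 CPM across WT 1 to WT 3, against 62.1, 49.7 and 93.8 CPM across KO 1 to KO 3. All knockout-labelled levels were higher, with a log2 ratio of 1.23 (edgeR adjusted p = 0.0999), while its relative Csnk1d had a log2 ratio of -0.0044. Prkaa2, a catalytic subunit of the energy sensor AMPK, was lower at -1.98 (edgeR adjusted p = 0.12), as was the ubiquitin protease gene Usp2 at -1.44 (0.168), and Timeless was at 0.75 (0.38). Usp2 measured 15.9, 70.4 and 28.7 CPM, against 15.4, 11.1 and 15.9 CPM, so its high value was again in WT 2.

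Of 10 metabolic, cell cycle and stem cell genes often listed as clock outputs, 9 were tested, 0 were higher and 2 lower at an unadjusted p under 0.05, with a median log2 ratio of -0.39. Over all tested genes, 11.8% were higher and 12.3% lower at that threshold. Ppargc1a, a coactivator of mitochondrial genes, measured 11.9, 55.3 and 23.5 CPM across WT 1 to WT 3, against 4.05, 2.97 and 2.33 CPM across KO 1 to KO 3 (log2 ratio -3.27, edgeR adjusted p = 0.094). Pck1, a gluconeogenic enzyme gene, was at -2.76 (0.129), the haem synthesis gene Alas1 at -0.61 (0.266) and the stem cell receptor gene Lgr5 at 1.85 (0.301). Ppargc1a and Pck1 were both highest in WT 2.

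Glucocorticoids and acute stimuli are known to induce Per1, and genes responding to them were examined beside it. Of 10 glucocorticoid-responsive genes 5 were higher (Tsc22d3, Klf9, Pdk4, Mt1 and Mt2) and 0 lower at an unadjusted p under 0.05, and none passed after adjustment. Over all tested genes, 11.8% were higher and 12.3% lower at that threshold. The other 5 glucocorticoid-responsive genes, among them Fkbp5 (log2 ratio 0.43) and Sgk1 (-0.27), overlapped between the labels. The metallothionein gene Mt1 held most of the list's reads under the knockout label, at 1905, 1855 and 7462 CPM in KO 1 to KO 3, so the list's sum is not used. Of 12 immediate early genes 3 were higher and 0 lower at that threshold, with sums that overlapped, at 1466 to 2414 and 2402 to 4836 CPM. The highest sum was in KO 3, the library with the most Per1. KO 1, with the next most Per1, had a lower sum (2402 CPM) than KO 2 (2460 CPM) and WT 1 (2414 CPM). The part of these stimuli in the level of Per1 was not tested.

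The genes nearest in profile were found by the root mean square difference of centred log2 CPM over the 6 libraries. Candidates were 13947 protein-coding genes with a mean of at least 1 CPM and a full symbol. The 10 clock genes were left out of the candidates, so their nearness to each other was not examined. The nearest genes among the candidates were not clock factors. For Arntl they were Lrrfip1 (0.0772), Trafd1 (0.0905) and the actin gene Actb (0.0974). For Nr1d1 they were Cebpa (0.0552), a transcription factor gene, Plpp6 (0.0586) and Gpr108 (0.0753), and Cebpa measured 68.2, 88.6 and 75.7 CPM across WT 1 to WT 3, against 33.0, 47.5 and 31.1 CPM across KO 1 to KO 3. For Dbp they were Cacng6 (0.137), the purine nucleoside phosphorylase gene Pnp2 (0.158) and Sox21 (0.227), all much less abundant. Cacng6 and Sox21 were near the floor under the knockout label. In KO 1 to KO 3 they measured 0.296, 0.572 and 0 CPM, and 0.198, 0.458 and 0 CPM. Pnp2 measured 3.92, 25.4 and 12.3 CPM, against 1.68, 2.69 and 0.389 CPM.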

How the data were processed

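Each of the 6 columns used from the deposited table gives raw counts of reads by gene, as whole numbers. Adaptor, poly-N and low-quality removal was done on the raw reads, per the labels' protocols. The submitters' processing notes name DESeq2, featureCounts (1.5.0-p3), HISAT2 (2.0.5) and StringTie (1.3.3b), with no roles, and builds GRCm38 and mm10. Strand setting and annotation release: not given in the sources used here. The deposited gene length equals the union of exons in GENCODE M21 for nearly all genes.

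The counts went into edgeR 4.0.16 under R 4.3.3: filterByExpr (minimum count 10, minimum total 15), TMM scaling, and the robust quasi-likelihood F test across all tested genes, two-sided, with Benjamini-Hochberg adjustment and a threshold of 0.05. SE is the log2 ratio over the root of F. CPM uses TMM-scaled library sizes, and log2 CPM a prior count of 2. Alternatives used DESeq2 1.42.0, limma 3.58.1, other scalings and filters, and left-out libraries. Library pairs within a label differed by far more than sampling noise (chi-square per degree of freedom 50.7 to 253), so none was counted as a copy.

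The members and lists were chosen with earlier results of these data known. Named beside the members are up to 4 tested genes with the smallest p from each of 3 clock lists and the 3 nearest profiles of Arntl, Nr1d1 and Dbp. One gene this rule named is not reported here. Motifs were searched in RefSeq promoters for GRCm38.p6.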

Additional observations from a re-analysis of the deposited data

How the results depend on the processing

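Over 17 alternatives, Arntl, Per1, Per2, Per3, Cry1, Cry2, Nr1d1 and Dbp kept their direction. Clock, near 0, turned negative in 7 of them: -0.049 with no filter on low counts, -0.0072 without mitochondrial and immune receptor genes, -0.014 with DESeq2, -0.14 without WT 1, -0.0087 without WT 3, -0.059 without KO 1 and -0.12 without KO 3. Nr1d2 turned positive with upper-quartile scaling (0.027) and without WT 2 (0.0093). Leaving out 1 library gave -0.14 to 0.14 for Clock and -0.29 to 0.0093 for Nr1d2. Genes past the adjusted threshold numbered 0 with all libraries in edgeR, 192 with no filter on low counts, 2029 with DESeq2, 1395 with limma-voom and quality weights, and 0 to 1813 when 1 library was left out, the 1813 being without KO 2. Clock genes at an unadjusted p under 0.05 numbered 5 with all libraries, 3 to 6 when 1 library was left out and 3 without KO 3 and WT 2 together. With the replicate number as a replicate block, 3 genes passed over the table and 3 clock genes had an unadjusted p under 0.05, all lower. The labels link same-numbered libraries by that number only. Deviations of same-numbered libraries from their group means correlated at -0.201, 0.0866 and -0.0753 across genes, which cannot settle whether they were paired. In these fits, leaving out 1 library leaves 2 in its group. With 3 libraries a group, an exact permutation test of a single value cannot go below p = 0.1. Depth does not limit the clock genes, whose lowest count was 63 reads (Dbp in KO 3).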

Other observations

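Cirbp and Rbm3 encode cold-inducible RNA-binding proteins whose transcripts are known to vary with body temperature over the day, and neither passed the adjusted test. Cirbp measured 63.5, 59.9 and 48.4 CPM across WT 1 to WT 3, against 85.4, 94.8 and 158.1 CPM across KO 1 to KO 3, without overlap (log2 ratio 0.98, edgeR adjusted p = 0.133). Rbm3 measured 234.0, 178.5 and 170.0 CPM, against 228.6, 323.2 and 624.7 CPM, with KO 1 just below WT 1 (log2 ratio 1.01, edgeR adjusted p = 0.213). The 6 heat shock genes of the same list differed in direction. Hsph1 (log2 ratio 1.32, edgeR adjusted p = 0.111) and Hsp90aa1 (0.70, 0.233) were higher in all 3 knockout-labelled libraries than in any wild-type one. Hspa1a (log2 ratio 0.45, edgeR adjusted p = 0.427) was well above the wild-type range of 12.6 to 13.4 CPM only in KO 3, at 25.5 CPM. In KO 1 and KO 2 it was at 13.4 and 14.6 CPM, so the labels nearly met. Dnajb1 (-0.65), Hspa1b (-0.25) and Hspa8 (0.029) overlapped between the labels. Hspa1a and Hspa1b are near-identical copies, and the split of reads between them is uncertain.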
